A study of Mus musculus with 35 samples.

Results

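The genes described here are 10 components of the Notch signalling pathway and of the segmentation machinery that it drives in the mouse embryo. They were taken by symbol from a table of 54446 genes measured by bulk RNA sequencing, and each of the 10 symbols had 1 row. Notch1, Notch2 and Notch3 encode receptors, Dll1, Dll3 and Jag1 encode ligands, Lfng encodes a glycosyltransferase that modifies the receptors, and Hes1, Hes7 and Hey1 encode basic helix-loop-helix (bHLH) repressors.

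Notch receptors are cut when a ligand on a neighbouring cell binds them, and the freed intracellular domain enters the nucleus, where it joins the DNA-binding protein Rbpj and switches on target genes, among them the repressors of the Hes and Hey families. In the presomitic mesoderm, which forms after the epiblast has gastrulated, Hes7 and Lfng are known to cycle with the formation of somites, and Dll1 and Dll3 are needed for regular segments. Dll3 differs from the other ligands in that it acts mainly inside the cell that makes it, where it dampens Notch activity.

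The table held 27 libraries in 9 groups of 3. Of these, 15 came from mouse embryos labelled wild-type CD-1, of mixed sex and without treatment, at 5 stages: the inner cell mass at embryonic day (E) 3.5 and the epiblast, the pluripotent tissue that forms the body, daily from E4.5 to E7.5. The other 12 came from wild-type pluripotent cultures: 3D EpiSCs (epiblast stem cells) made from embryonic stem cells (ESC3D) or from E5.5 epiblasts (Embryo3D), both kept in 3D Matrigel with FGF2, Activin A, the tankyrase inhibitor XAV and Noggin. 2D EpiSCs were converted from embryonic stem cells with FGF2 and Activin A, and EpiLCs (epiblast-like cells) were embryonic stem cells held for 48 h in the same 2 factors. According to the study, cultures from epiblasts were derived from LifeAct-GFP and wild-type CD-1 embryos, and its methods do not say which gave the Embryo3D libraries. The genetic background of ESC3D and Embryo3D cannot be told apart from their origin. Each embryonic library was a pool of embryos. The inner cell mass was cut out by laser. The E4.5 epiblast was collected after removal of the trophectoderm as cells without signal of a Pdgfra:H2B-GFP reporter, so by the methods of the study those embryos carried that allele, although the labels give wild-type and CD-1 for all 15 libraries. The cross behind the E4.5 libraries cannot be told apart from their stage. The later epiblasts were freed by hand from visceral endoderm and extra-embryonic ectoderm. The labels do not say whether replicate libraries of a culture came from separate cultures, so p-values measure the spread between these libraries.

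Values are TPM, a transcript's share of all transcripts after correction for length, which has 1 fixed total and does not show how deeply a library was read. Between 20324 and 26751 genes were above 0 TPM in the embryonic libraries and between 22215 and 24438 in the cultures. Embryonic and cultured libraries were made with different kits, total RNA depleted of ribosomal cDNA in the first case and poly-A capture in the second, so origin and kit cannot be told apart and levels are only set side by side between them. RNA of E3.5 and E4.5 was also fragmented for longer and at a lower temperature than that of the later stages, and this cannot be told apart from the step between E4.5 and E5.5.

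The embryonic libraries did not hold epiblast RNA alone. The summed level of 10 trophectoderm and extra-embryonic ectoderm markers was 3307 to 3366 TPM at E3.5 and 2963 to 3136 TPM at E4.5, with 8 of the 10 above 2 TPM at both stages, against 414 to 860 TPM from E5.5 to E7.5. Elf5, a transcription factor of the trophoblast, stood at 123.5 to 130.0 TPM at E4.5. The sum of 12 primitive and visceral endoderm markers was 656 to 680 TPM at E3.5, 326 to 362 at E4.5, 965 to 1027 at E5.5, 1523 to 1536 at E6.5 and 1465 to 1506 at E7.5, with 9, 8, 12, 12 and 12 of the 12 above 2 TPM. Afp, a secreted protein of the visceral endoderm, was listed at 0 at E3.5 and E4.5 and stood between 75.5 and 128.2 TPM from E5.5 on. Streak and mesoderm markers were present at E6.5 and E7.5, with 10 and 11 of 12 above 2 TPM and sums of 375 to 469 and 432 to 451 TPM, but they were not the same ones. Eomes and Mesp1, of the streak and nascent mesoderm, stood at 146 to 173 and 48.9 to 73.3 TPM at E6.5 and at 3.52 to 5.09 and 13.3 to 14.6 TPM at E7.5. Eomes is also on the trophectoderm list, and stood at 94.7 to 104 TPM at E3.5 and 148 to 160 TPM at E4.5. Before E6.5, the 12 streak and mesoderm markers summed to 249 to 252 TPM at E3.5, 211 to 215 at E4.5 and 129 to 139 at E5.5. At those stages 4, 5 and 8 of them were above 2 TPM. Msgn1, a transcription factor of the presomitic mesoderm, stood at 72.7 to 78.3 TPM at E7.5 after at most 0.111 TPM at E6.5. Neural markers were there too, with 2 of 5 above 2 TPM at E6.5 and 4 of 5 at E7.5. Their sums were 34.4 to 61.9 and 75.9 to 81.0 TPM. Pou5f1, the defining factor of pluripotency, was present in all 27 libraries, at 240.9 to 759 TPM in the embryo and 1309 to 1936 TPM in culture. The 9 epiblast markers, Pou5f1 among them, summed to 2730 to 3184 TPM at E6.5 and 825 to 871 TPM at E7.5. At these stages 9 and 8 of them were above 2 TPM. Tdgf1 went from 78.8 to 91.4 TPM at E6.5 to at most 0.814 TPM at E7.5. Sox2 stood at 31.2 to 34.9 TPM at E6.5 and at 38.4 to 39.9 TPM at E7.5. In such bulk samples, more cells of a type and more RNA per cell cannot be told apart. The part of these other tissues in the results below was not tested.

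Among the cultures, replicate 3 of ESC3D lay apart from replicates 1 and 2, with a median absolute log2 difference over genes of 0.27 to each, while replicates 1 and 2 differed by 0.06. Replicates 2 and 3 of Embryo3D and 1 and 2 of 2D EpiSCs were as close, at 0.06 each, whereas the other pairs of cultured replicates differed by 0.13 to 0.22. Results that changed without ESC3D replicate 3, or with the close pairs averaged, are given with both values.

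Of the 10 genes, 8 had a promoter in the RefSeq table of GRCm38.p6, from 250 bases before to 50 bases after each start site, with 9 windows in all. Hes1 and Hey1 were not among them. The 6-base core to which Rbpj binds, TGGGAA or TTCCCA on the other strand, was found in 2 of the 9 windows, those of Lfng and Hes7, and in 25.6% of 32851 windows of all genes. The longer form GTGGGAA, or TTCCCAC on the other strand, was in both windows too and in 6.38% of all windows. These 2 promoters are shown because their genes are the classical cycling genes of segmentation and because the core stands in them. Capitals mark the core, which is a match of letters and not a measured binding site.
Lfng, chr5:140607091-140607390, + strand: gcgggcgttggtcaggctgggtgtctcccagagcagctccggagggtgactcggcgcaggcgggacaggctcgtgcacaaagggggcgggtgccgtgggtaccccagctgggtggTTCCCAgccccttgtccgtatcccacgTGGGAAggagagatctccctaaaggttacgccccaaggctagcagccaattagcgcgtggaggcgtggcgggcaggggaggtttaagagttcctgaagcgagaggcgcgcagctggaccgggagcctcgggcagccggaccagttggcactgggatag
Hes7, chr11:69120203-69120502, + strand: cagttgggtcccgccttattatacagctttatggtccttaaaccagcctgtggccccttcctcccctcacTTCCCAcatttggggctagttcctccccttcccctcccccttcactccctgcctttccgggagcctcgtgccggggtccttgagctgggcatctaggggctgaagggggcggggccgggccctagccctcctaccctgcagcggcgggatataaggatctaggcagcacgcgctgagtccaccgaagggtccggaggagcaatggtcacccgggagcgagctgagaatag
In Lfng the core nearest to the start site began 108 bases before it and formed the longer form with the g before it. In Hes7 the single core began 180 bases before the start site, on the other strand.

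Differences between adjacent stages and between cultures were fitted with limma on log2(TPM + 1), once for the 15 embryonic and once for the 12 cultured libraries. A difference counted as called where its p, adjusted by Benjamini and Hochberg's method over all genes tested, was below 0.05 and its absolute log2 fold change above 1. All 10 genes were among the 11880 tested in the embryo, where a gene needed more than 2 TPM in at least 3 libraries, and Hes7 passed that filter through the 3 libraries of E7.5 alone. In culture, 9 of the 10 were among the 11541 genes tested, and Hes7 was not.

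**Figure D1:**
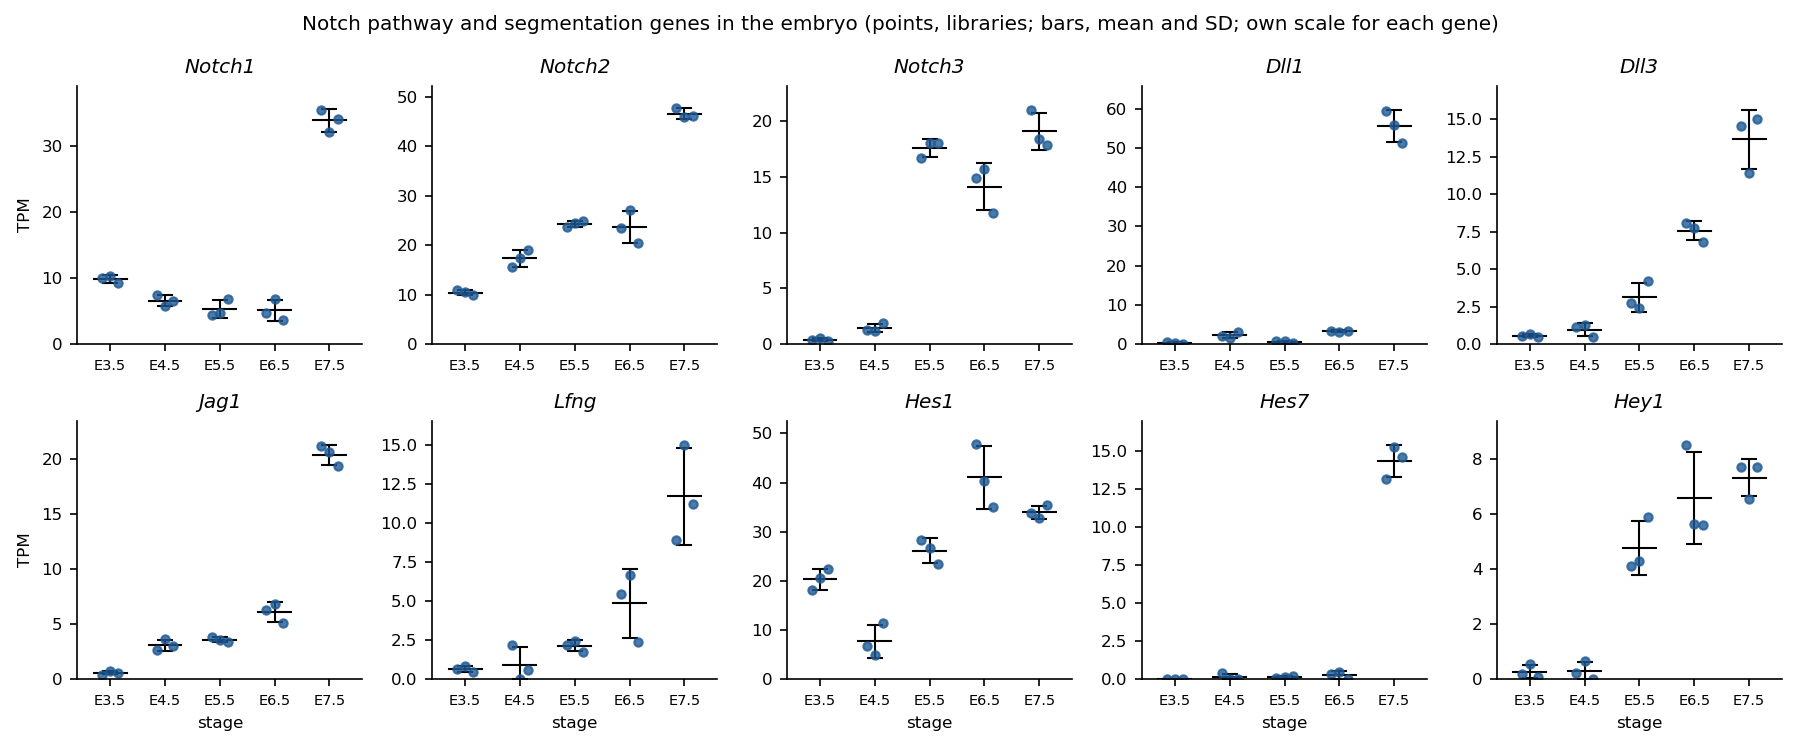
TPM of the 10 genes (vertical axes, 1 scale per gene, from 0) in the 3 libraries of each embryonic stage (horizontal axes), with points for libraries and bars for the mean and SD. Dll1, Hes7, Notch1 and Jag1 stood far higher at E7.5 than at any earlier stage, while Notch3 and Hey1 were low until E4.5 and present from E5.5 on.

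Gastrulation proceeds over the step from E6.5 to E7.5. There 5 of the 10 genes rose and none fell, against 10.6% of all genes tested called higher and 1.94% called lower, and 1 of the 5, Hes7, was tested only because of its level at E7.5. The 5 were the ligands Dll1 and Jag1, the receptor Notch1, the glycosyltransferase Lfng and the repressor Hes7. The median of all genes tested was itself 0.31 higher on the log2 scale at E7.5. Rescaling TPM by median-of-ratios factors brought this shift to 0.01 and the share of higher among all calls from 84.6% to 65.8%, and 4 of the 5 genes were still called.

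Dll1, the ligand that acts in the presomitic mesoderm and in nascent neurons, lies on chromosome 17 (15367354-15376872, minus strand, mm10). It stood at 0.460, 0.425 and 0.0989 TPM in the libraries of E3.5 and at 2.19, 1.67 and 3.14 TPM in those of E4.5. The libraries of E5.5 were low again, at 0.733, 0.707 and 0.287 TPM, before 3.49, 3.04 and 3.37 TPM at E6.5. At E7.5 the values were 59.5, 55.8 and 51.3 TPM, and every library of that stage was above every earlier one. Of the 10 genes it was the only one called at all 4 steps. It rose from E3.5 to E4.5 (log2 fold change 1.32 ± 0.16 SE, limma adjusted p = 1.51e-05), fell from E4.5 to E5.5 (-1.07 ± 0.16, adjusted p = 7.06e-05), and rose at E6.5 (1.46 ± 0.16, adjusted p = 0.000121) and at E7.5 (3.72 ± 0.16, adjusted p = 9.6e-10). The ratio of mean TPM at the last step was 16.9, and 27 of the 11880 genes tested had a higher log2 fold change. The fall at E5.5 was past the limit on fold by little: it was -0.93 without E5.5 replicate 3 and -0.90 without E4.5 replicate 3, where the call was lost.

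Jag1, the other canonical ligand of the set, lies on chromosome 2 (137081456-137116644, minus strand). Its levels were 0.417, 0.722 and 0.574 TPM at E3.5 and 2.61, 3.64 and 2.99 TPM at E4.5, with no overlap between the stages. At E5.5 it stood at 3.83, 3.54 and 3.41 TPM, overlapping E4.5. At E6.5 it stood at 6.29, 6.86 and 5.11 TPM and at E7.5 at 21.2, 20.7 and 19.4 TPM, each above the stage before. Jag1 rose from E3.5 to E4.5 by 1.37 ± 0.12 on the log2 scale (adjusted p = 3.2e-07) and from E6.5 to E7.5 by 1.60 ± 0.12 (adjusted p = 1.28e-07). The difference between E5.5 and E6.5, 0.62 ± 0.12 (adjusted p = 0.00483), was below the limit on fold.

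Dll3, on chromosome 7 (28293553-28302238, minus strand), took a more even course than Dll1. The libraries held 0.558, 0.670 and 0.453 TPM at E3.5 and 1.12, 1.30 and 0.473 TPM at E4.5, which overlap. Those of E5.5 held 2.73, 2.43 and 4.24 TPM, those of E6.5 held 8.09, 7.73 and 6.84 TPM, and those of E7.5 held 14.6, 11.4 and 15.01 TPM. From E4.5 on, no library of a stage reached those of the next. Dll3 rose at E5.5 (1.08 ± 0.18, adjusted p = 0.000153) and at E6.5 (1.07 ± 0.18, adjusted p = 0.00248). At E7.5 the difference was 0.77 ± 0.18 (adjusted p = 0.00293), not past the limit on fold. Both calls were close to that limit. The first came to 1.00 after rescaling, just below it, to 0.89 without E5.5 replicate 3 and to 0.88 without E4.5 replicate 3, and the second to 0.95 without E5.5 replicate 2.

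The 3 receptors differed in when they moved. Notch1, on chromosome 2 (26457903-26516663, minus strand), was present at all stages and lowest in the middle of the series. The 3 values were 9.96, 10.3 and 9.18 TPM at E3.5, 7.48, 5.79 and 6.48 TPM at E4.5, 4.35, 4.71 and 6.82 TPM at E5.5 and 4.75, 6.83 and 3.72 TPM at E6.5. The stages from E4.5 to E6.5 overlapped. At E7.5 the values were 35.4, 32.0 and 34.1 TPM, a rise of 2.54 ± 0.17 on the log2 scale (adjusted p = 6.92e-08) and 6.63 times the mean of E6.5.

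Notch2, on chromosome 3 (98013527-98150361, plus strand), was called at no step, although its mean was higher at E7.5 than at any other stage. It was measured at 10.9, 10.5 and 9.90 TPM at E3.5, at 15.6, 17.4 and 18.9 TPM at E4.5, at 23.6, 24.5 and 24.9 TPM at E5.5 and at 23.5, 27.01 and 20.5 TPM at E6.5. At E7.5 they stood at 47.8, 45.8 and 46.0 TPM, above every earlier library. The differences between adjacent stages were 0.68 ± 0.10 at E4.5, 0.47 ± 0.10 at E5.5, -0.05 ± 0.10 at E6.5 and 0.95 ± 0.10 at E7.5. The last had an adjusted p of 4.67e-06 and missed the limit on fold, which it passed without E6.5 replicate 2, at 1.05.

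Notch3, on chromosome 17 (32120820-32166880, minus strand), moved at implantation instead. It stood at 0.338, 0.583 and 0.328 TPM at E3.5 and at 1.25, 1.19 and 1.86 TPM at E4.5. At E5.5 it reached 16.7, 18.0 and 18.0 TPM, and it stayed between 11.7 and 21.0 TPM in the 6 libraries of E6.5 and E7.5. The rise from E4.5 to E5.5 was 2.94 ± 0.13 on the log2 scale (adjusted p = 2.78e-10), 12.2 times the mean. The difference at E4.5, 0.78 ± 0.13, rested on low levels: it was not called with a pseudocount of 1 and was called, at 1.58, with a pseudocount of 0.1.

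Lfng, on chromosome 5 (140607320-140615545, plus strand), had the largest SE of the 10 genes in the embryo. Its libraries stood at 0.629, 0.843 and 0.475 TPM at E3.5 and at 2.18, 0 and 0.596 TPM at E4.5. They held 2.17, 2.44 and 1.75 TPM at E5.5, 5.47, 6.67 and 2.39 TPM at E6.5 and 8.91, 15.002 and 11.2 TPM at E7.5. Only the libraries of E7.5 lay apart from the stage before. Lfng rose at E7.5 by 1.17 ± 0.36 (adjusted p = 0.0152), and this call was the least stable of the step. A pseudocount of 0.1 ended it (adjusted p = 0.195), and it was also lost with rescaled TPM (0.88, adjusted p = 0.078), without E7.5 replicate 2 (0.99, adjusted p = 0.0619) and without E6.5 replicate 3 (0.82, adjusted p = 0.0764). The difference at E5.5, 0.85 ± 0.36 (adjusted p = 0.0562), was called without E4.5 replicate 1, at 1.30.

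Hes7, the repressor of the segmentation clock, lies on chromosome 11 (69120404-69124055, plus strand) and was close to absent before E7.5. It was listed at 0 in all 3 libraries of E3.5 and in 2 of the 3 libraries of E4.5, and stood at 0.0749, 0.166 and 0.179 TPM at E5.5 and at 0.336, 0.493 and 0 TPM at E6.5. At E7.5 its libraries held 13.2, 15.2 and 14.6 TPM. The fitted rise was 3.60 ± 0.15 on the log2 scale (adjusted p = 4.04e-10) and depends on the pseudocount, since the earlier levels were near 0. It ranged from 3.35 to 5.61 over the alternatives and was called in all 13. Hes7 passed the filter through E7.5 alone, which favoured this call, so the adjusted p and the kept calls are no independent support.

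Hes1, the most abundant of the 3 repressors at every stage, lies on chromosome 16 (30064384-30067796, plus strand) and dipped at E4.5. Its libraries stood at 18.0, 20.5 and 22.4 TPM at E3.5, at 6.78, 4.97 and 11.5 TPM at E4.5, and at 28.3, 26.8 and 23.4 TPM at E5.5. Both neighbours lay above E4.5 without overlap. It fell by 1.35 ± 0.21 on the log2 scale at E4.5 (adjusted p = 8.93e-05) and rose by 1.70 ± 0.21 at E5.5 (adjusted p = 7.68e-06). At E6.5 it stood at 47.9, 40.3 and 35.1 TPM and at E7.5 at 33.9, 32.7 and 35.4 TPM, differences of 0.62 ± 0.21 (adjusted p = 0.0688) and -0.26 ± 0.21 (adjusted p = 0.312) that did not pass. The endoderm markers were likewise lowest at E4.5 and highest at E6.5, with summed levels of 656 to 680 TPM at E3.5, 326 to 362 TPM at E4.5 and 1523 to 1536 TPM at E6.5. Their part in the course of Hes1 was not tested.

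Hey1, on chromosome 3 (8663359-8667256, minus strand), shared the timing of Notch3. It stood at 0.198, 0.531 and 0.0920 TPM at E3.5 and at 0.214, 0.647 and 0 TPM at E4.5, then at 4.11, 4.27 and 5.87 TPM at E5.5. The libraries of E6.5 held 8.50, 5.62 and 5.60 TPM and those of E7.5 held 7.68, 6.54 and 7.71 TPM, which overlap. Hey1 rose once, at E5.5, by 2.18 ± 0.20 on the log2 scale (adjusted p = 4.99e-07).

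Read by step, 3 of the 10 genes were called between E3.5 and E4.5, Dll1 and Jag1 higher and Hes1 lower, where 5.88% of all genes tested were called higher and 11.9% lower. Between E4.5 and E5.5, 5 were called: Notch3, Hey1, Hes1 and Dll3 higher and Dll1 lower. All genes tested gave 14.9% higher and 9.47% lower at that step. Between E5.5 and E6.5, 2 were called, Dll1 and Dll3, both higher. Few genes moved then, 0.715% of all tested being called higher and 0.48% lower. The median of the 10 log2 differences was 0.23, 0.66, 0.50 and 1.06 at the 4 steps, beside -0.10, 0.16, -0.06 and 0.31 over all genes tested, and the last of these counts Hes7, which was tested only because of its level at E7.5.

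**Figure D2:**
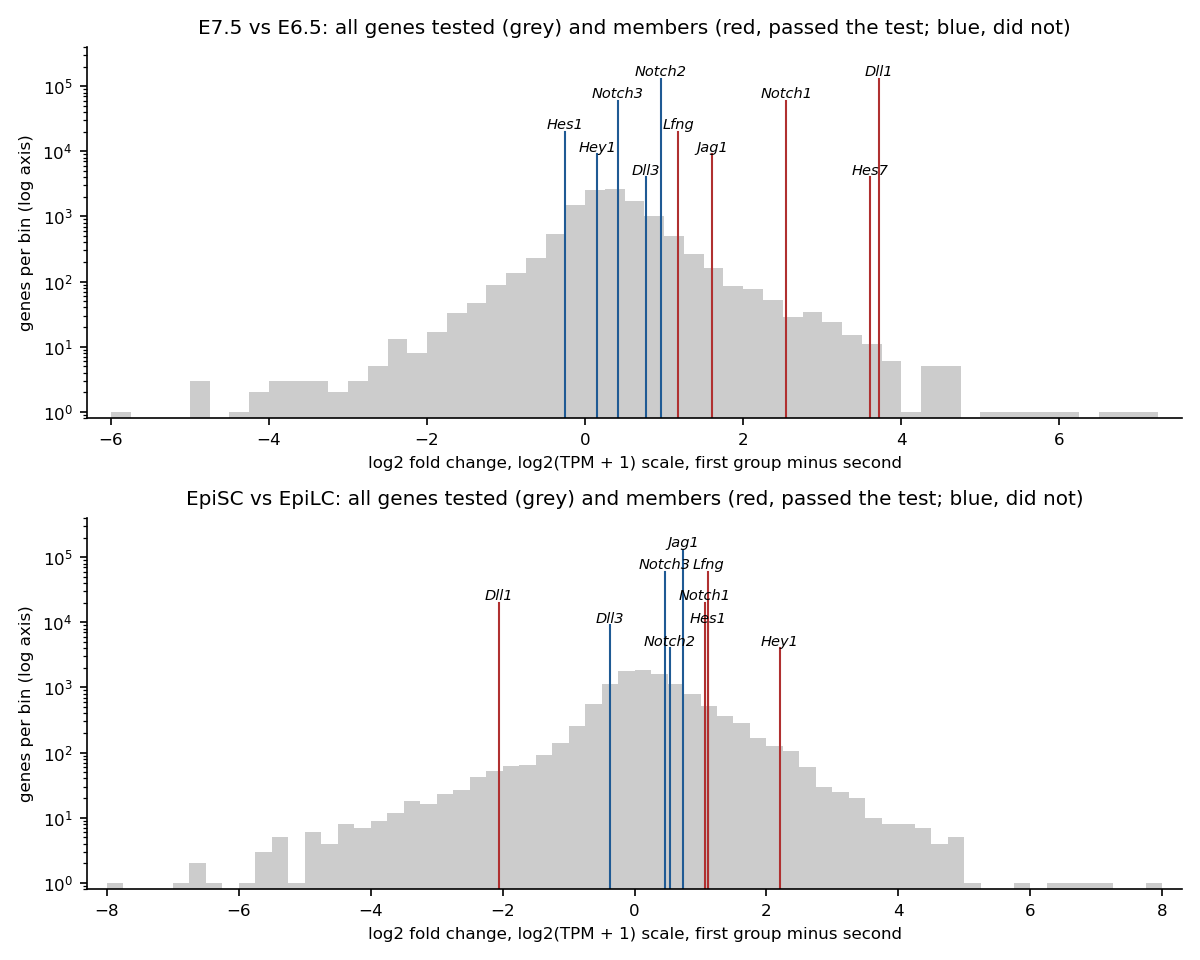
Number of genes per bin of 0.25 (vertical, log axis) by fitted log2 fold change (horizontal) for E7.5 against E6.5 (top) and 2D EpiSCs against EpiLCs (bottom), with the genes tested as lines (all 10 at the top, all but Hes7 at the bottom), red where called and blue where not. At E7.5, Dll1 (3.72) and Hes7 (3.60) stood in the right tail and Hes1 (-0.26) left of the centre, and in 2D EpiSCs Hey1 (2.20) and Dll1 (-2.06) stood at opposite sides.

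**Figure D3:**
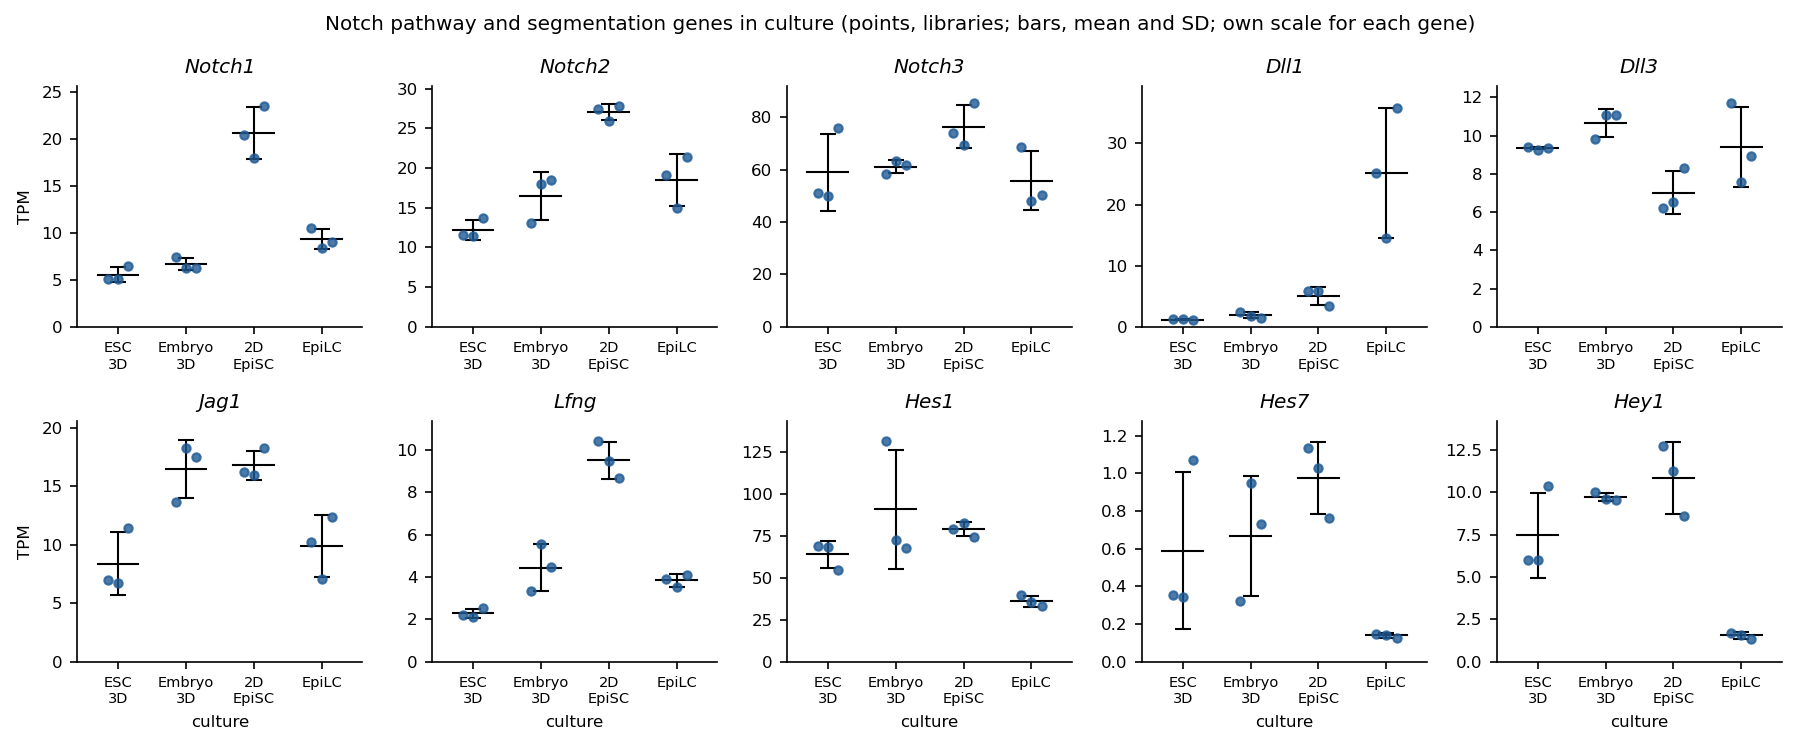
TPM of the 10 genes (vertical axes, 1 scale per gene, from 0) in the 3 libraries of each culture (horizontal axes), with points for libraries and bars for the mean and SD. Dll1 was highest in EpiLCs, whereas Notch1, Lfng and Notch2 were highest in 2D EpiSCs and Hey1 was lowest in EpiLCs.

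In culture the gene that differed most was again Dll1. It reached 25.1, 14.6 and 35.8 TPM in EpiLCs and at 5.87, 5.91 and 3.35 TPM in 2D EpiSCs. In the 3D cultures it stood at 1.21, 1.24 and 1.11 TPM (ESC3D) and 2.45, 1.76 and 1.50 TPM (Embryo3D). No 2 of the 4 cultures overlapped. Dll1 was lower in 2D EpiSCs than in EpiLCs (-2.06 ± 0.27, adjusted p = 5.76e-05), and lower in ESC3D (-3.49 ± 0.27, adjusted p = 1.3e-06) and in Embryo3D (-3.10 ± 0.27, adjusted p = 2.27e-06). The mean of EpiLCs was 4.99, 21.2 and 13.2 times the mean of these 3 cultures, which share the EpiLC libraries as reference. Against 2D EpiSCs, Dll1 was lower in ESC3D (-1.43 ± 0.27, adjusted p = 0.00181) and in Embryo3D (-1.04 ± 0.27, adjusted p = 0.0129). The second call was lost after rescaling (-0.95), with the close replicates averaged (-0.86, adjusted p = 0.168) and without Embryo3D replicate 3 (-0.94, adjusted p = 0.0531), 2D EpiSC replicate 1 (-0.93, adjusted p = 0.0537) or 2D EpiSC replicate 2 (-0.92, adjusted p = 0.0545).

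Notch1 was the receptor that parted the cultures. It stood at 20.4, 18.0 and 23.4 TPM in 2D EpiSCs, at 10.5, 8.42 and 8.98 TPM in EpiLCs, at 7.38, 6.29 and 6.25 TPM in Embryo3D and at 5.07, 5.13 and 6.43 TPM in ESC3D. The 2 3D cultures overlapped, and each lay below EpiLCs. Notch1 was lower than in 2D EpiSCs by 1.72 ± 0.13 on the log2 scale in ESC3D, where the mean of 2D EpiSCs was 3.72 times as high (adjusted p = 4.38e-06). In Embryo3D the log2 difference to 2D EpiSCs was -1.50 ± 0.13 (adjusted p = 6.65e-06). It was higher in 2D EpiSCs than in EpiLCs by 1.07 ± 0.13 (adjusted p = 2.55e-05), a call lost after rescaling (0.86) and without 2D EpiSC replicate 3 (0.98). The differences of ESC3D and Embryo3D to EpiLCs, -0.65 ± 0.13 and -0.43 ± 0.13, were below the limit on fold.

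Notch2 followed the same order of extremes. Its libraries stood at 27.4, 25.9 and 27.8 TPM in 2D EpiSCs, at 19.2, 14.9 and 21.4 TPM in EpiLCs, at 13.1, 18.0 and 18.5 TPM in Embryo3D and at 11.6, 11.5 and 13.7 TPM in ESC3D. Only 2D EpiSCs lay apart from the culture next in order. Notch2 was called once, lower in ESC3D than in 2D EpiSCs (-1.08 ± 0.15, adjusted p = 0.00026), and rescaling ended that call (-0.87).

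Notch3 was the most abundant receptor in every cultured library and was called in none of the 6 comparisons. It stood at 74.0, 69.5 and 85.5 TPM in 2D EpiSCs, at 58.3, 63.3 and 61.6 TPM in Embryo3D, at 51.2, 49.9 and 75.9 TPM in ESC3D and at 68.6, 48.1 and 50.4 TPM in EpiLCs. The last 3 overlapped, and ESC3D replicate 3 alone reached the range of 2D EpiSCs. The largest of its 6 differences, between 2D EpiSCs and EpiLCs, was 0.46 ± 0.17 (adjusted p = 0.0381).

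The other ligands differed less than Dll1. Jag1 stood at 16.2, 15.9 and 18.2 TPM in 2D EpiSCs, at 13.6, 18.3 and 17.5 TPM in Embryo3D, at 10.2, 7.09 and 12.4 TPM in EpiLCs and at 7.00, 6.69 and 11.5 TPM in ESC3D. The first 2 of these overlapped, as did the last 2. Jag1 was called in no comparison as fitted, although it was lower in ESC3D than in 2D EpiSCs by 0.96 ± 0.21 (adjusted p = 0.00415) and than in Embryo3D by 0.92 ± 0.21 (adjusted p = 0.0123). Without ESC3D replicate 3, in which it was highest, both passed, at -1.18 (adjusted p = 0.000436) and -1.14 (adjusted p = 0.00133). The second also passed without Embryo3D replicate 1 (-1.04, adjusted p = 0.0132), and the first with a pseudocount of 0.1 (-1.03).

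Dll3 was nearly level: 9.38, 9.27 and 9.37 TPM in ESC3D, 9.80, 11.0 and 11.1 TPM in Embryo3D, 11.7, 7.57 and 8.93 TPM in EpiLCs and 6.19, 6.53 and 8.29 TPM in 2D EpiSCs. EpiLCs overlapped each of the other 3 cultures. Its largest difference, between Embryo3D and 2D EpiSCs, was 0.55 ± 0.14 (adjusted p = 0.0121), and it was not called.

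Lfng was highest in 2D EpiSCs, at 10.4, 9.46 and 8.67 TPM. It stood at 3.31, 5.53 and 4.47 TPM in Embryo3D, at 3.88, 3.51 and 4.11 TPM in EpiLCs and at 2.21, 2.11 and 2.51 TPM in ESC3D, and only Embryo3D and EpiLCs overlapped. Lfng was lower in ESC3D than in 2D EpiSCs (-1.68 ± 0.14, adjusted p = 9.43e-06), and higher in 2D EpiSCs than in EpiLCs (1.12 ± 0.14, adjusted p = 3.42e-05), where rescaling brought the difference to 0.92. In Embryo3D against 2D EpiSCs the difference was -0.97 ± 0.14 (adjusted p = 0.000306), just short of the limit on fold. It passed with a pseudocount of 0.1, with the close replicates averaged (-1.02), without Embryo3D replicate 2 and without 2D EpiSC replicate 3.

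The repressors Hes1 and Hey1 were lowest in EpiLCs. Hey1 stood at 1.72, 1.60 and 1.35 TPM there, against 6.00, 6.03 and 10.4 TPM in ESC3D, 10.0, 9.62 and 9.57 TPM in Embryo3D and 12.8, 11.2 and 8.59 TPM in 2D EpiSCs. The 3 EpiSC cultures overlapped, and none reached down to EpiLCs. Hey1 was higher than in EpiLCs by 1.69 ± 0.18 on the log2 scale in ESC3D (adjusted p = 1.99e-05), by 2.07 ± 0.18 in Embryo3D (adjusted p = 2.39e-06) and by 2.20 ± 0.18 in 2D EpiSCs (adjusted p = 1.57e-06), which share the EpiLC libraries. All 3 calls were kept under all 14 alternatives.

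Hes1 stood at 39.6, 35.4 and 33.1 TPM in EpiLCs, at 68.8, 68.4 and 55.0 TPM in ESC3D, at 79.5, 82.9 and 74.5 TPM in 2D EpiSCs and at 132, 72.9 and 67.6 TPM in Embryo3D. A single Embryo3D library, replicate 1, was far above the rest. Hes1 was higher than in EpiLCs in Embryo3D (1.25 ± 0.21, adjusted p = 0.000355) and in 2D EpiSCs (1.11 ± 0.21, adjusted p = 0.000731), but not past the limit on fold in ESC3D (0.81 ± 0.21, adjusted p = 0.00788). The first call was lost without Embryo3D replicate 1 (0.95), and the second after rescaling (0.89).

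Hes7 was low in all cultures and was not tested there. It stood between 0.324 and 1.13 TPM in the 9 libraries of the EpiSC cultures and between 0.127 and 0.150 TPM in EpiLCs.

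By comparison, 4 of the 9 genes tested were lower in ESC3D than in 2D EpiSCs (Notch1, Lfng, Dll1 and Notch2) and none higher, against 9.25% lower and 0.633% higher of all genes tested. In Embryo3D, 2 were lower than in 2D EpiSCs (Notch1 and Dll1), against 7.75% lower and 1.07% higher. Endoderm and mesoderm markers differed between these cultures too. The 12 endoderm markers summed to 52.6 to 70.8 TPM in 2D EpiSCs, 1.91 to 15.3 in ESC3D and 13.0 to 25.0 in Embryo3D, with 4, 1 and 3 of them above 2 TPM and Afp listed at 0 or at most 0.128 TPM. Sox17, a factor of the endoderm, stood at 24.3 to 26.1 TPM in 2D EpiSCs and at most at 10.7 TPM in the 3D cultures. The 12 streak and mesoderm markers summed to 255 to 265 TPM in 2D EpiSCs, 82.3 to 118 in ESC3D and 173 to 256 in Embryo3D, with 6, 5 and 7 above 2 TPM and Msgn1 listed at 0. In EpiLCs the 2 sums were 7.41 to 11.5 and 45.2 to 54.8 TPM. Their part in the differences was not tested. Against EpiLCs, ESC3D had Hey1 higher and Dll1 lower, where 5.33% of all genes were higher and 7.11% lower. Embryo3D had Hey1 and Hes1 higher and Dll1 lower, beside 10.5% and 8.28% of all genes. 2D EpiSCs had 4 higher than EpiLCs (Hey1, Lfng, Hes1 and Notch1) and Dll1 lower, against 15.2% higher and 5.14% lower. After rescaling, 2 of these 5 were called, Hey1 and Dll1, and the share of higher among all calls went from 74.8% to 63.0%.

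Between ESC3D and Embryo3D, limma called 0 of the 9 genes, where 1.98% of all genes tested were higher in ESC3D and 1.98% lower. Rescaling moved the share of higher among all calls there from 49.9% to 64.4%. At an unadjusted p below 0.05, where 37.5% of all genes lay, 3 of the 9 differed, Jag1 (-0.92 ± 0.21), Lfng (-0.71 ± 0.14, adjusted p = 0.00546) and Notch2 (-0.39 ± 0.15, adjusted p = 0.0862), and all 9 fitted differences were below 0, as were 64.5% of those of all genes. The median of the 9 was -0.39, beside -0.12 over all genes tested. In the other comparisons, in the order given above, the medians of the 9 were -0.96, -0.31, -0.22, 0.15 and 0.74, and those of all genes -0.21, -0.08, 0.01, 0.10 and 0.18.

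**Figure D4:**
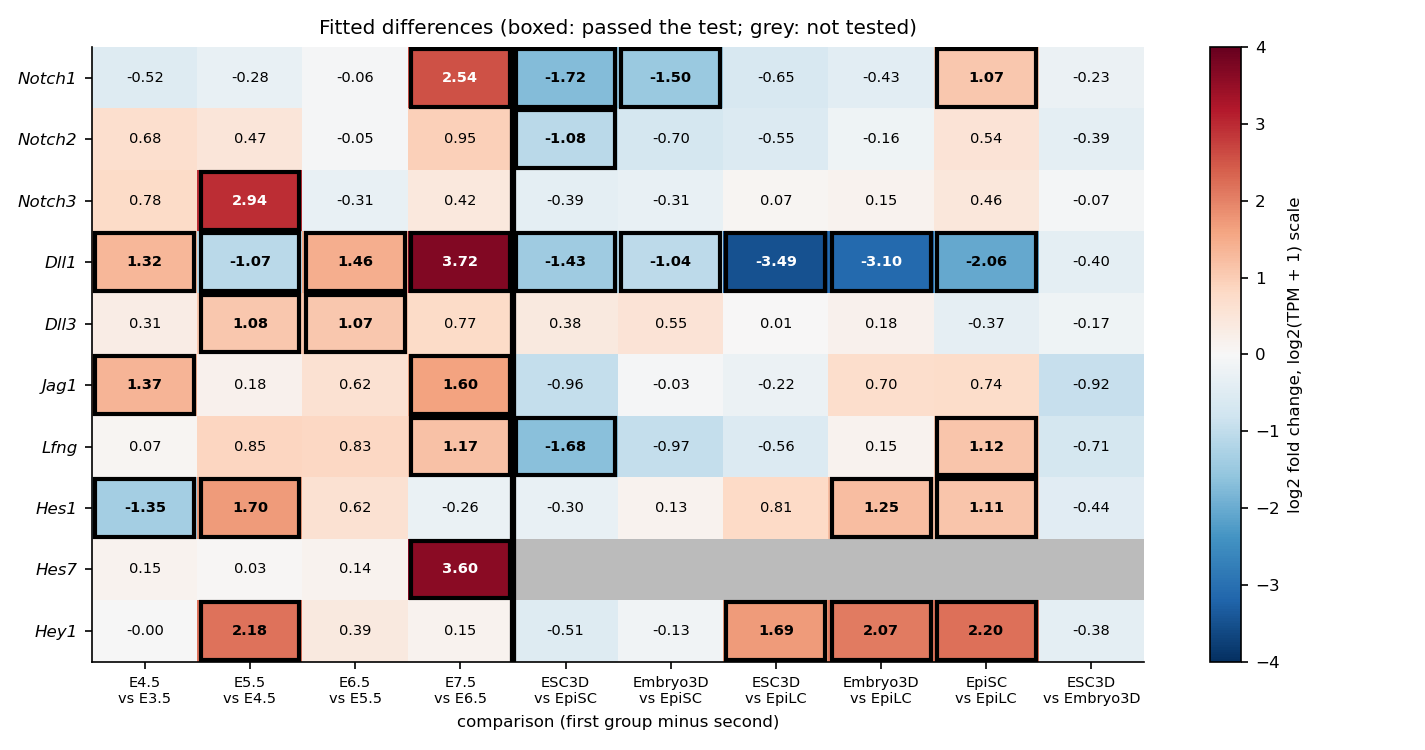
Fitted log2 fold changes of the 10 genes (rows) in the 4 comparisons of adjacent stages and the 6 comparisons of cultures (columns), red where higher in the first group and blue where lower, boxed where called and grey where not tested. Dll1 was called in 9 of the 10 columns, and the last column, ESC3D against Embryo3D, holds no box.

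Because TPM is a level per transcript length, the members of a class can be set beside each other within a library. Among the 4 Notch receptors, Notch1 held 42.7% ± 0.712 and Notch2 45.4% ± 1.61 of the summed TPM at E3.5 (SD, n = 3). At E5.5, Notch2 held 50.1% ± 1.20, Notch3 36.2% ± 0.984 and Notch1 10.8% ± 2.21. At E7.5, Notch1 was back at 33.5% ± 0.726 beside Notch2 at 46.1% ± 0.839 and Notch3 at 18.8% ± 1.00. Notch2 thus had the largest mean share at each of the 5 stages. In culture Notch3 held the most, with 75.3% ± 2.28 in ESC3D, 71.6% ± 0.910 in Embryo3D, 66.1% ± 3.85 in EpiLCs and 61.0% ± 0.851 in 2D EpiSCs. Its highest share in any embryonic library was 37.3% and its lowest in any cultured library was 60.3%, a gap that lies between 2 kits and was not tested.

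The ligands changed more in their make-up. Jag2, a ligand outside the set, held 78.4% ± 7.12 of the summed TPM of 5 ligands at E3.5 and 2.53% ± 0.543 at E7.5. Dll1 held 59.6% ± 1.74 at E7.5 and 16.9% ± 2.48 at E6.5. In culture Dll1 held 42.8% ± 8.72 in EpiLCs, 8.85% ± 2.45 in 2D EpiSCs, 4.28% ± 1.14 in ESC3D and 4.16% ± 1.23 in Embryo3D. The summed ligand level was 7.43 ± 0.837 TPM at E3.5, 19.7 ± 2.28 TPM at E6.5 and 93.1 ± 5.20 TPM at E7.5 (SD, n = 3), and that of the receptors 23.0 ± 1.01, 44.4 ± 7.16 and 101.0 ± 4.09 TPM.

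**Figure D5:**
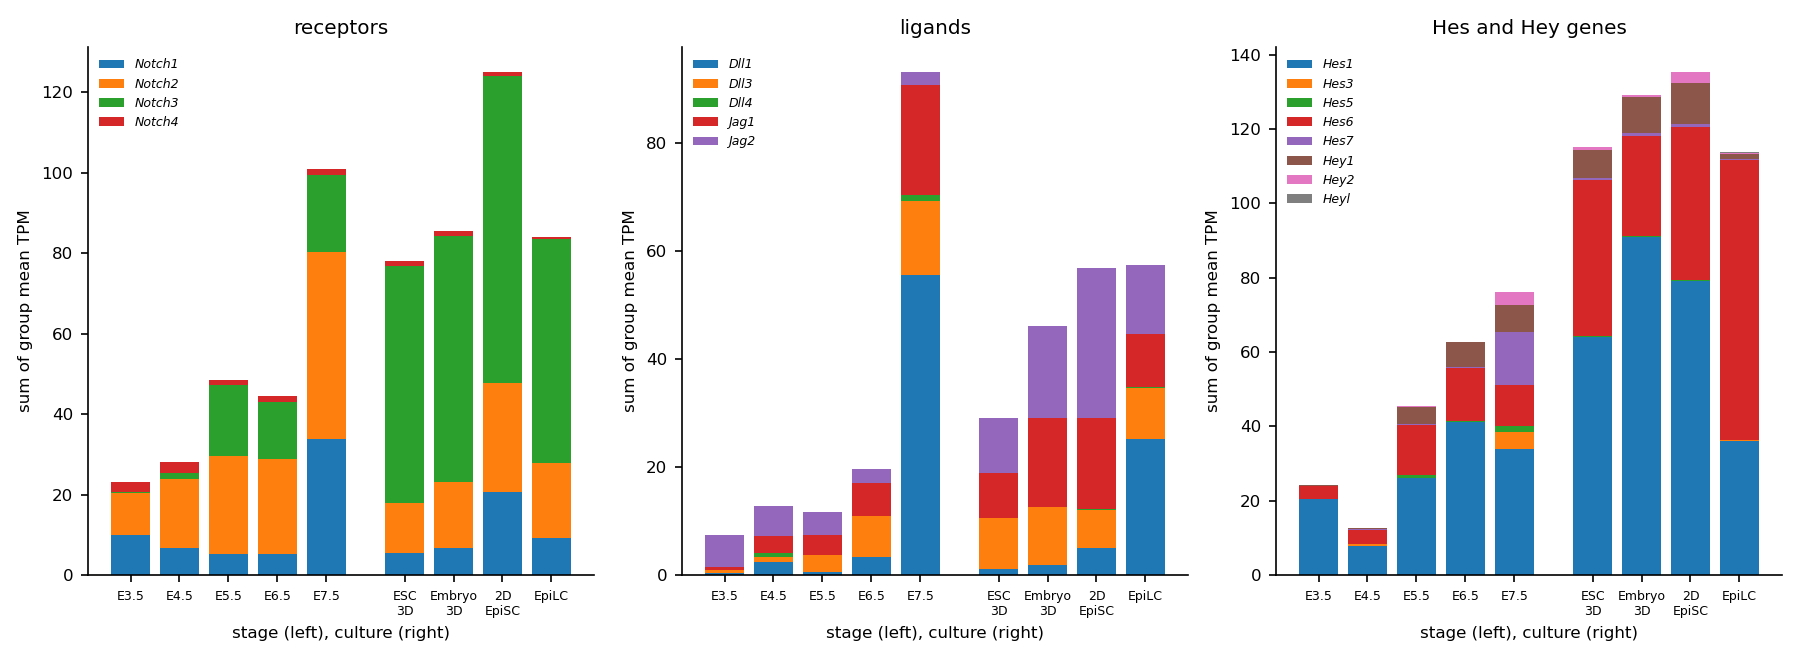
Sum of the group means of TPM (vertical axes, from 0) of the receptors, the ligands and the Hes and Hey genes, stacked by gene, for the 5 embryonic stages and the 4 cultures (horizontal axes), which were made with different kits. Notch3 fills most of the receptor bars in culture and Dll1 most of the ligand bar at E7.5.

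Side by side, and with no test because of the kits, the level of Dll1 in EpiLCs (25.2 ± 10.6 TPM) lay between those of E6.5 (3.30 ± 0.233 TPM) and E7.5 (55.5 ± 4.11 TPM), while in ESC3D it was 1.19 ± 0.0658 TPM and in Embryo3D 1.90 ± 0.486 TPM. Hes7 at E7.5 stood at 14.3 ± 1.05 TPM and in no cultured library above 1.13 TPM. Hes1 was between 33.1 and 132 TPM in the 12 cultured libraries and between 4.97 and 47.9 TPM in the 15 embryonic ones.

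The rest of the Notch pathway was read from a list of 47 other genes, of which 42 were tested in the embryo and 38 in culture. Between E6.5 and E7.5, 6 of the 42 rose and 1 fell, beside the 10.6% and 1.94% of all genes. Of the 6, 4 (Maml2, Tle2, Hes3 and Hey2) passed the filter on low values through the libraries of E7.5 alone and so had to differ, which leaves nothing to read from the count. Dlk1, a ligand-like protein without the receptor-binding domain of the canonical ligands, rose by 2.54 ± 0.13 on the log2 scale. Hes3, a repressor of the same family as Hes7, was listed at 0 in all 3 libraries of E6.5 and stood at 4.44 ± 1.99 TPM at E7.5, and Hey2, a relative of Hey1, stood at 0.0628 and 3.45 TPM on average. Maml2 and Maml3, coactivators of the Notch complex, and the corepressor Tle2 were the others, and Dtx1, a ubiquitin ligase of the pathway, fell by 1.11 ± 0.27. The call of Maml3 was lost after rescaling and that of Dtx1 without E6.5 replicate 2. The median of the 42 was 0.43, beside 0.31 over all genes.

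Between E4.5 and E5.5, 8 of the 42 rose and 6 fell, the most of any step, beside 14.9% and 9.47% of all genes. Of the 6, Neurl1b passed the filter through libraries of E3.5 and E4.5 alone, which favoured its fall. Rbpj, the DNA-binding partner of the receptors, fell by 1.86 ± 0.09 on the log2 scale (adjusted p = 8.56e-10), from 94.7 to 25.4 TPM. Nrarp, a feedback inhibitor that is itself a target of the pathway, fell by 1.02 ± 0.15 after a rise of 2.19 ± 0.15 at E4.5. Its fall was lost without E5.5 replicate 1 (-0.85) and without E4.5 replicate 2 (-0.97). The trophectoderm and extra-embryonic ectoderm markers fell at the same step, from 2963 to 3136 TPM in sum at E4.5 to 414 to 446 TPM at E5.5, and their part in the fall of Rbpj was not tested. Among the genes that rose were Hes6, a family member that opposes Hes1 (1.57 ± 0.23), Dtx1 (2.50 ± 0.27) and Mfng, a relative of Lfng (1.25 ± 0.17). From E3.5 to E4.5, Nrarp and Tle3 rose and Mib2 fell, and from E5.5 to E6.5 Dlk1 rose.

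In culture, 2D EpiSCs had 10 of 38 higher than EpiLCs and 1 lower, beside 15.2% and 5.14% of all genes, and Embryo3D had 6 higher and 5 lower, beside 10.5% and 8.28%. ESC3D had 4 higher than EpiLCs and 2 lower, beside 5.33% and 7.11%. In 2D EpiSCs against EpiLCs, Maml3 was higher by 3.21 ± 0.13, Nrarp by 2.11 ± 0.18, Furin, a protease that processes the receptors, by 2.07 ± 0.14, and Hey2 by 1.65 ± 0.23. Mfng was lower by 1.35 ± 0.13. Hey2 averaged 2.94 TPM in 2D EpiSCs and 1.01 TPM or less in the other cultures. It thus passed the filter only through 2D EpiSCs, which favoured its differences to them. Rescaling lowered the count of genes higher in 2D EpiSCs to 6. Nrarp and Maml3 were also higher than in EpiLCs in both 3D cultures, Nrarp by 1.43 ± 0.18 in ESC3D and 2.04 ± 0.18 in Embryo3D, and the 3 comparisons share the EpiLC libraries. Hes6 was lower in Embryo3D than in EpiLCs (-1.40 ± 0.23). Against 2D EpiSCs, 4 of 38 were lower in ESC3D (Jag2, Hey2, Tle4 and Maml3), beside 9.25% of all genes, while in Embryo3D 3 were lower (Neurl1a, Hey2 and Dtx1), beside 7.75%, and 1 higher (Mib2), beside 1.07%. These shares are close to those of all genes, and both counts of lower genes include Hey2, tested only because of its level in 2D EpiSCs. Between the 3D cultures Dtx1 was called, higher in ESC3D by 1.80 ± 0.16.

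The other segmentation genes were a list of 23, of which 18 were tested in the embryo, several only through their level at E7.5. At that stage 9 rose and 2 fell, beside 10.6% and 1.94% of all genes. Of the 9, 6 (Msgn1, Meox1, Foxc2, Tbx6, Foxc1 and Pax3) passed the filter through E7.5 alone, and their fitted values depend on the pseudocount, since they were near 0 at E6.5. Msgn1 rose by 6.19 ± 0.11 on the log2 scale, Meox1, a factor of the somites, by 4.55 ± 0.19, Foxc2 by 4.30 ± 0.20, and Tbx6, which with Notch drives Mesp2, by 3.86 ± 0.26. Mesp1 and Mesp2, factors of the nascent mesoderm and of the segment border, fell by 1.92 ± 0.12 and 1.42 ± 0.17. Mesp2 passed the filter through E6.5 alone, which favoured its fall. With members selected in this way on both sides, neither count at E7.5 can be read against the shares of all genes. At E6.5, Mesp1 and Mesp2 had risen by 4.82 ± 0.12 and 2.07 ± 0.17. In that earlier step Snai1, Dact1 and Sp5 rose as well, making 5 of 18, beside 0.715% of all genes, with Mesp2 tested through its level at E6.5 alone. Hes7 stood at or below 0.493 TPM. In culture 10 of the 23 were tested. Between the 3D cultures, 4 were lower in ESC3D (Dact1, Nkd1, Snai1 and Sp5) and 0 higher, beside 1.98% of all genes each way. The count of lower genes ranged from 2 to 4 over the alternatives. Against 2D EpiSCs, ESC3D had 3 lower (Dact1, Snai1 and Sp5) and 1 higher (Dusp6), beside 9.25% and 0.633%, and Embryo3D had 0. Snai1 passed the filter only with the 2D EpiSC libraries, which favoured its difference to them. Against EpiLCs, ESC3D had 0 higher and 2 lower (beside 5.33% and 7.11%), Embryo3D 3 and 3 (10.5% and 8.28%) and 2D EpiSCs 3 and 1 (15.2% and 5.14%). Tcf15, a bHLH factor of somites that is also found in the epiblast, was higher in EpiLCs (26.1 TPM on average) than in 2D EpiSCs (3.81 TPM, -2.45 ± 0.26), ESC3D (3.70 TPM) and Embryo3D (1.52 TPM), and Msgn1 was listed at 0 in the 9 libraries of the EpiSC cultures.

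Genes with the most similar course over the 15 embryonic libraries were found by Pearson's correlation of log2(TPM + 1) for each of the 9 genes called at a step. The libraries of a stage share their dissection, so this is a description. For Hes7 they were Pax3 (r = 0.996), a paired-box factor of the neural tube and somites, Kif26b and Rgs5, and for Notch1 they were Igdcc3 (r = 0.989), Lmx1b and Frmd6. For Dll1 they were Rab8b (r = 0.983), Mcc and Kdr, a receptor of the vascular mesoderm (r = 0.975). For Jag1 they were Tnfrsf19 (r = 0.989), Slc39a10 and Sall3. For Dll3, Chrd, an antagonist of BMP signalling made by the node, came first with r = 0.984. For Notch3 they were Setd7 (r = 0.997), Rnf145 and Kif5c, and for Hey1 Slc13a4 (r = 0.989), Sel1l3 and Dpp9. For Lfng, Plxna2 came first with r = 0.959, before Prrc2b and Samd14. For Hes1 they were Hnf4a (r = 0.967), a factor of the visceral endoderm, Bckdk and Mvb12b.

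Exons of 5 of the 10 genes overlap those of another gene in GENCODE vM21. Notch1, Notch3, Dll1 and Hes7 have a partner on the opposite strand, and whether the quantification used strand is not given in the sources used here. Those partners were listed at no more than 0.704 TPM in any library. Notch2 shares 541 exonic bases with Gm42820 on its own strand, which stood at 1.73 to 2.73 TPM at E7.5 and at most at 1.44 TPM in the earlier stages.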

How the data were processed

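Bulk RNA-seq values of 27 libraries in 9 groups of 3 were used, and 8 other samples of the series were not used here. According to the methods of the study, the authors used cutadapt for trimming (version 2.4 in the submitters' processing notes), STAR for alignment to mm10 and StringTie for quantification against GENCODE genes, and deposited the values as TPM. TPM keeps no depth, so no interval from counts is given. Levels of different genes can be compared because TPM is per length, but poly-A capture and total RNA libraries differ in what they sample.

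Lines with the same identifier were summed (12 identifiers) and empty cells (56 lines) counted as 0. Genes were autosomal, protein-coding in GENCODE vM21 (20774 of 54446, of which 54409 were matched) and above 2 TPM in at least 3 libraries of a set. The study used a count model, and limma 3.58.1 (R 4.3.3) was used here on log2(TPM + 1), with a single fit per set and eBayes without trend. Log2 fold changes on that scale understate changes of low genes. On simulated data of the comparison of E7.5 with E6.5 (11880 genes), 199 of 200 genes given a change of 2 log2 units passed, with 0 false calls, and of ESC3D with 2D EpiSC (11541 genes) 194 of 200, with 4 false calls. Python 3.11.15, numpy 2.4.6, pandas 2.3.3 and matplotlib 3.10.9 served for the rest. Adjustment was over genes and not over the 10 comparisons.

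The 10 genes, the 2 lists of other pathway and segmentation genes and the marker lists were chosen with earlier results of these data known. All 10 genes are described. Genes of the lists are named where called in a comparison, and the genes of similar course are the 3 with the highest r, of which 1 is not reported here. No sequencing batch is named in the labels. The fits were repeated with other settings: rescaled TPM (median-of-ratios factors), a smaller pseudocount (0.1), all genes in place of the filtered ones, fits of 2 groups at a time, a block for the replicate number, eBayes with an intensity trend, genes of every chromosome and biotype, each replicate left out in turn and, in culture, close replicates averaged.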

Additional observations from a re-analysis of the deposited data

How the results depend on the processing

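Of 31 calls of a gene in a comparison, 21 were kept under every alternative run (13 in the embryo, 14 in culture) and 10 were lost under 1 or more, while 6 pairs that were not called as fitted were called under 1 or more. No alternative turned the direction of any of these differences. The 21 kept calls include that of Hes7 at E7.5, which was tested only because of its level at that stage. Of the refitted values, 468 stayed on their side of the limits, 21 dropped below them and 11 passed them. After rescaling of TPM, 1 gene was called between Embryo3D and 2D EpiSC in place of 2, and 2 between 2D EpiSC and EpiLC in place of 5. Leaving out 1 library moved the count to 3 to 6 for E5.5 against E4.5 (3 without E5.5 replicate 3 or E4.5 replicate 3), 1 to 2 for E6.5 against E5.5, 1 to 3 for Embryo3D against 2D EpiSC and 0 to 1 for ESC3D against Embryo3D. The cause was not tested. Over all genes tested, rescaling brought the calls at E7.5 from 1265 higher and 231 lower to 736 and 382, and between ESC3D and Embryo3D from 228 and 229 to 270 and 149, where 49.9% and 64.4% of calls were higher. Between ESC3D and 2D EpiSC it brought the calls in the higher direction from 73 to 133. With a pseudocount of 0.1 the calls were 136 higher and 126 lower in place of 85 and 57 at E6.5, 374 and 345 between the 3D cultures, 129 higher between ESC3D and 2D EpiSC and 354 lower at E7.5. With genes of every chromosome and biotype, 2041 were higher at E7.5, 191 lower at E6.5 and 312 in place of 123 higher between Embryo3D and 2D EpiSC. Between the 3D cultures, 431 were lower without ESC3D replicate 3 and 100 with close replicates averaged. Deviations from the group means of libraries with the same replicate number had a mean correlation of -0.0166 in the embryo (30 pairs) and -0.0299 in culture (18 pairs). These means gave no sign that the numbers pair the libraries, but a mean over all groups cannot exclude pairing between some of them. In fits with a replicate block, the counts of the 10 genes called stayed at 3, 5, 2 and 5 at the 4 steps and at 4, 2, 2, 3, 5 and 0 in culture. TPM leaves the depth behind the levels below about 1 TPM unknown, which limits Hes7, Dll1, Lfng, Hey1, Jag1, Dll3 and Notch3 at the early stages. The called rises of Dll1 and Jag1 at E4.5 start from such levels.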
